A study of Mus musculus with 36 samples.

Results

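Neurotrophin genes were examined in chromatin of the mouse dorsal hippocampus through 2 ligands, Bdnf and Ntf3, and 3 receptors, Ntrk2, Ntrk3 and Ngfr. The genes were chosen by name, 5 of 21883 protein-coding genes, and every deposited peak that overlapped one of them or the 10 kb on either side was taken. Chromatin immunoprecipitation with sequencing had been run for H3K9ac and H3K27ac, which are histone H3 acetylated on lysine 9 and on lysine 27, with input chromatin, in 36 samples that form 12 groups of 3. The groups of each mark, all of male mice aged to 8 weeks, were an ethanol-treated Acss2 knockdown, an untreated Acss2 knockdown, ethanol-treated mice with a control vector and untreated mice with a control vector. Ethanol was given intraperitoneally at 2 g per kg as a 20% solution in saline, and the time between dose and tissue is not stated in the sources used here. The knockdown vector was an AAV2/9 virus placed in the dorsal hippocampus, with a U6 promoter for the hairpin RNA and a CMV promoter for EGFP. U6 is not restricted to a cell type, and the share of cells transduced is not stated in the sources used here. The names of the deposited lists call the control groups WT, and the labels name no saline injection for untreated mice. Histone peaks do not measure Acss2 mRNA, so the knockdown itself was not checked here.

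Neurotrophins are secreted growth factors that support survival, dendrite growth and synaptic plasticity in neurons. BDNF, from Bdnf, acts mainly through the receptor tyrosine kinase TrkB, from Ntrk2, and NT-3, from Ntf3, acts mainly through TrkC, from Ntrk3, while all neurotrophins and their precursors can bind p75NTR, from Ngfr. Bdnf is read from several alternative promoters that are spliced to a shared coding exon, and some of these promoters respond to neuronal activity and are used in memory formation in the hippocampus. H3K9ac gathers at active promoters, and H3K27ac marks active promoters and enhancers.

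Promoter windows of 4 of the 5 genes, 11 windows in all, were matched in RefSeq (build GRCm38.p6), each running from 250 bases before to 50 bases after a transcription start. Bdnf had 7 starts, at 0, 2.33, 17.7, 18.3, 19.7, 34.7 and 48.2 kb from the first, Ntf3 had 2, and Ntrk2 and Ngfr had 1 each. The nearest peak or its width differed between lists near several starts, among them Bdnf start 4, which is not printed. Printed here are 5 windows of such starts. They lie at chr2:109674450-109674749 (Bdnf start 1, plus strand), chr2:109676782-109677081 (Bdnf start 2, plus strand), chr2:109692186-109692485 (Bdnf start 3, plus strand), chr6:126164911-126165210 (Ntf3 start 2, minus strand) and chr11:95587649-95587948 (Ngfr start 1, minus strand), and each is written 5′ to 3′ on the strand of its gene with motif matches in capitals.
Bdnf start 1: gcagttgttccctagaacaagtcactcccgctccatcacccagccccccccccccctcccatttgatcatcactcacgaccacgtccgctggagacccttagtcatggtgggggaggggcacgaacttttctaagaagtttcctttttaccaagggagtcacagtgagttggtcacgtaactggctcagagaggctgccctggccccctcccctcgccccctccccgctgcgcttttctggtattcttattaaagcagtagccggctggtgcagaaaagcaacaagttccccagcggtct
Bdnf start 2: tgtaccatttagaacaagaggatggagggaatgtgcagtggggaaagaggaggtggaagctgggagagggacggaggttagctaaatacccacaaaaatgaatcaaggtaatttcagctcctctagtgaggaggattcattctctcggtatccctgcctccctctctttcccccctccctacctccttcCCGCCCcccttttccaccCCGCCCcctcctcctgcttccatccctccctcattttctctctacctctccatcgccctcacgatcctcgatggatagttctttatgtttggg
Bdnf start 3: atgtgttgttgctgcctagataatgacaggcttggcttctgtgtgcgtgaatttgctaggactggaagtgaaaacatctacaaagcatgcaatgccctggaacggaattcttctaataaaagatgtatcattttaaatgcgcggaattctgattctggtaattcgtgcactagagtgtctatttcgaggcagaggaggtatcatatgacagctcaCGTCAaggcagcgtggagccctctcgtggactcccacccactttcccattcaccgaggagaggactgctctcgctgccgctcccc
Ntf3 start 2: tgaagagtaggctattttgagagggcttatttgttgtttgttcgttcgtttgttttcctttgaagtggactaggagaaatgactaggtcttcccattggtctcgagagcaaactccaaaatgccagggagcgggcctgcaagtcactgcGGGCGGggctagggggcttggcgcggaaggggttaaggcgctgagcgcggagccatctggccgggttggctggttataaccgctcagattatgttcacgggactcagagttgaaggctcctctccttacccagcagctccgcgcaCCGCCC
Ngfr start 1: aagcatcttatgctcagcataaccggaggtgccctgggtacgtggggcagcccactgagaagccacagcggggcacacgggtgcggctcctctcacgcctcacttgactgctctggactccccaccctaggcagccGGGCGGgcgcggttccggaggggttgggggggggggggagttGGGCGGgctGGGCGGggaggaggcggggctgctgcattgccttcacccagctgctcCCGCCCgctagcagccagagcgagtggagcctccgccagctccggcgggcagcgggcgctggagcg

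The motifs searched on both strands were the cyclic AMP response element TGACGTCA, its core TGACG, the E-box CACGTG, the GC box GGGCGG and the EGR motifs GCGTGGGCG and GCGGGGGCG. The full response element was in none of the 11 windows, and in 2.23% of all 21262 promoter windows of the table. Its core occurred in 1 of the 11, on the minus strand of Bdnf start 3 with its first base at position -35 from the start, and in 23.6% of all windows. The GC box was in 6 of the 11 windows, those of Bdnf starts 2 and 4, Ntf3 starts 1 and 2, Ntrk2 and Ngfr, with 4 matches in Ngfr, and it was in 46.2% of all windows. The E-box, found in 7.84% of all windows, was in Ntf3 start 1 only, and no EGR motif was found in these 11 windows, against 4.62% of all. These are matches of letters, with no measurement of binding.

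Each mark and condition had 1 deposited peak list standing for its 3 replicates, so values below have no replicate error and no test. The lists held 31042 to 42120 H3K9ac peaks and 86110 to 119317 H3K27ac peaks on the assembled chromosomes, and the H3K9ac list of ethanol-treated control mice was the shortest. Read depth is unknown, and a list made from more reads can hold more and wider peaks. Peaks stood at 5 of 5 neuronal markers and 5 of 5 astrocyte markers in every list. They stood at 4 or 5 of 5 markers of the oligodendrocyte lineage and at 3 or 4 of 4 hippocampal markers. Of 4 microglial markers, 0 or 1 had an H3K9ac peak and 2 or 3 an H3K27ac peak, and Tmem119 had neither. Of 4 endothelial markers, 1 or 2 had an H3K9ac peak and 1 to 3 an H3K27ac peak, and Tek had neither. Of 4 genes of other tissues, 1 (Myh6) had an H3K9ac peak in every list and 1 or 2 had an H3K27ac peak, and Alb and Krt5, genes of liver and epidermis, had neither.

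The covered length, the number of bases inside peaks within the gene and its flanks, was used as the level of each gene. In H3K9ac Bdnf had 5150 bp in ethanol-treated knockdown, 4153 bp in untreated knockdown, 2240 bp in ethanol-treated control and 3807 bp in untreated control hippocampus. Ntf3 H3K9ac covered 1274 bp in ethanol-treated knockdown, 1189 bp in untreated knockdown, 0 bp in ethanol-treated control and 1098 bp in untreated control. The ethanol-treated control list was thus the lowest for both ligands, with no peak at all for Ntf3, and the ethanol-treated knockdown list was the highest. The whole H3K9ac lists had the same low and high ends. They covered 24.1 Mb in ethanol-treated knockdown, 21.7 Mb in untreated knockdown, 16.1 Mb in ethanol-treated control and 22.6 Mb in untreated control. Among the receptors, H3K9ac covered 5923 bp of Ntrk2 in ethanol-treated knockdown, 4366 bp in untreated knockdown, 3799 bp in ethanol-treated control and 4797 bp in untreated control. Ntrk3 had 4485 bp in ethanol-treated knockdown, 4062 bp in untreated knockdown, 3629 bp in ethanol-treated control and 4259 bp in untreated control. Both Trk receptor genes followed the order of the ligands at the low and the high end, over a narrower range. Ngfr had no H3K9ac peak in ethanol-treated knockdown, 487 bp in untreated knockdown, 358 bp in ethanol-treated control and 885 bp in untreated control, so its lowest list was the one in which the other 4 genes were highest.

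**Figure D1:**
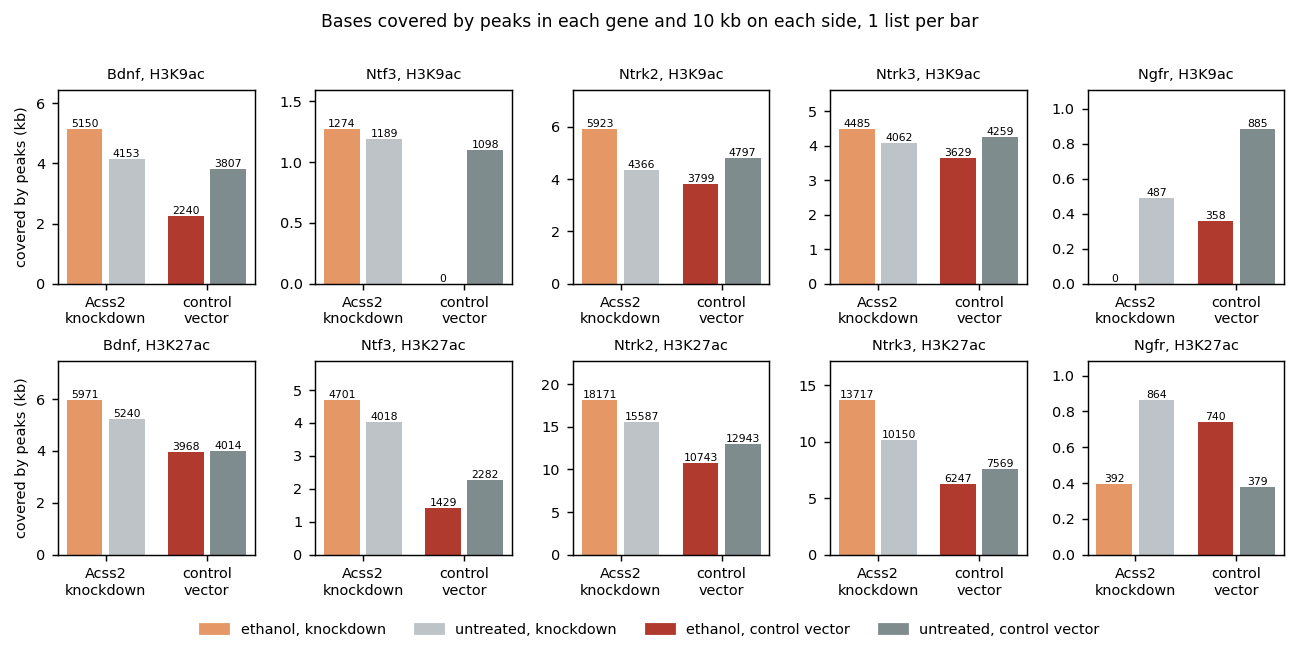
Bases covered by H3K9ac peaks (top) and H3K27ac peaks (bottom) at each gene, in kb on axes that start at 0 and differ between panels, with 1 bar per deposited list and its value in bp above it. Ethanol-treated knockdown is the highest bar for Bdnf, Ntf3, Ntrk2 and Ntrk3 in both marks, and for Ngfr it is at 0 in H3K9ac and at 392 bp in H3K27ac.

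In H3K27ac Bdnf had 5971 bp in ethanol-treated knockdown, 5240 bp in untreated knockdown, 3968 bp in ethanol-treated control and 4014 bp in untreated control. Ntf3 had 4701 bp in ethanol-treated knockdown, 4018 bp in untreated knockdown, 1429 bp in ethanol-treated control and 2282 bp in untreated control. Both knockdown lists stood above both control lists for the ligands. The whole H3K27ac lists had this order too, with 57.4 Mb in ethanol-treated knockdown, 47.8 Mb in untreated knockdown, 38.1 Mb in ethanol-treated control and 40.1 Mb in untreated control. Among all genes with at least 200 bp in either list, 73.6% had more H3K27ac bases in knockdown than control when untreated and 89.1% with ethanol. For the Trk receptors, H3K27ac covered 18171 bp in ethanol-treated knockdown, 15587 bp in untreated knockdown, 10743 bp in ethanol-treated control and 12943 bp in untreated control at Ntrk2. At Ntrk3 it covered 13717 bp in ethanol-treated knockdown, 10150 bp in untreated knockdown, 6247 bp in ethanol-treated control and 7569 bp in untreated control. Both knockdown lists again stood above both control lists. Ngfr had 392 bp in ethanol-treated knockdown, 864 bp in untreated knockdown, 740 bp in ethanol-treated control and 379 bp in untreated control, which followed no such order.

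The windows differ in length, from 38.9 kb for Ngfr to 421 kb for Ntrk3, so genes were compared per kb of window. In untreated control hippocampus H3K9ac covered 52.6 bp per kb at Bdnf, 22.8 at Ngfr, 13.8 at Ntrk2, 12.9 at Ntf3 and 10.1 at Ntrk3. Bdnf lay above 76.4% of protein-coding genes on this scale, and the other 4 between 41.3% and 54.8%. For H3K27ac in the same mice Bdnf had 55.5 bp per kb, Ntrk2 37.2, Ntf3 26.7, Ntrk3 18.0 and Ngfr 9.75. Bdnf was thus the most densely covered of the 5 in both marks, and Ngfr was second in H3K9ac and last in H3K27ac. With 1 list per condition the spread of these levels is unknown, so it cannot be said which neighbours in the order differ.

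At Bdnf (gene 12064, chr2:109674700-109727043, plus strand), H3K9ac lay in 8 regions, where peaks of the 4 lists that overlap were joined, and 4 of the 8 were present in all lists. The regions sat in 2 blocks, at starts 1 and 2 and at starts 3 to 5, and no H3K9ac peak lay beyond 30 kb from the first start. Near start 1 the 305 bp peak of untreated control hippocampus ended 256 bp from the start, whereas the nearest peak of ethanol-treated control lay 1896 bp away. In the knockdown the nearest peak was 593 bp away with ethanol and 261 bp away in untreated mice. The H3K9ac peaks near start 1 scored from 6.2 to 9.7 on the authors' −log10 scale, above 33.6% to 53.9% of their lists. An H3K27ac region near start 1 was in all lists, with 486 bp in ethanol-treated knockdown, 376 bp in untreated knockdown, 448 bp in ethanol-treated control and 386 bp in untreated control. The widest H3K9ac region, 2396 bp from 109692561 to 109694956 and spanning starts 4 and 5, was a single peak of 2396 bp in ethanol-treated knockdown and 1835 bp in 2 peaks in untreated knockdown. It held 1029 bp in 3 peaks in ethanol-treated control and 1833 bp in 2 peaks in untreated control. The same stretch was therefore continuous in one list and most broken up in the ethanol-treated control list.

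No H3K9ac peak covered start 3 of Bdnf, whose window holds the response element core shown above, and the nearest one was 125 bp away in ethanol-treated knockdown, 508 bp in untreated knockdown, 661 bp in ethanol-treated control and 483 bp in untreated control. An H3K27ac peak covered start 3 in untreated knockdown alone. The H3K9ac bases that lay closer to start 2 than to any other start numbered 2098 in ethanol-treated knockdown, 1700 in untreated knockdown, 1056 in ethanol-treated control and 1401 in untreated control. At starts 6 and 7 no list had H3K9ac, and H3K27ac beyond 30 kb amounted to 622 bp in ethanol-treated knockdown and 137 bp in ethanol-treated control, with none in either untreated list. All 4 H3K9ac regions shared by ethanol-treated and untreated control were narrower with ethanol, with a summed difference of -1262 bp, and the 305 bp region near start 1 was in the untreated list alone. Over all genes, 80.8% of the H3K9ac regions present in all lists were narrower in ethanol-treated than untreated control. Read depth is unknown and the tissue holds mixed cell types. Fewer cells with acetylation, less acetylation per cell and fewer reads therefore cannot be told apart.

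**Figure D2:**
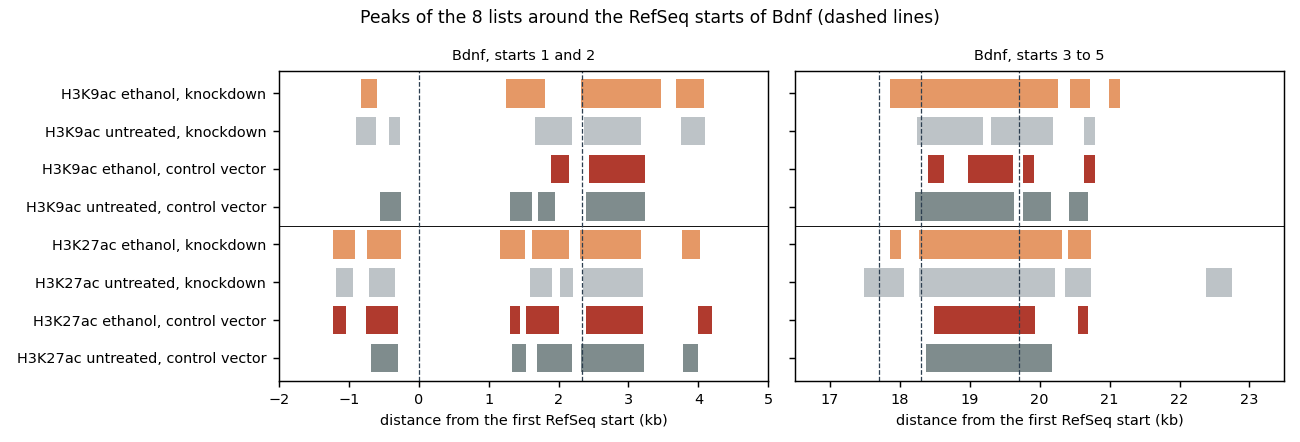
Peaks around Bdnf starts 1 and 2 (left) and starts 3 to 5 (right), drawn by distance in kb from the first start, with 1 row per list, dashed lines at RefSeq starts and narrow peaks widened to a minimum width. The widest H3K9ac region, which spans starts 4 and 5, is 1 peak in ethanol-treated knockdown and 3 peaks in ethanol-treated control.

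Ntf3 (gene 18205, chr6:126101412-126166772, minus strand) carried both marks mainly within a few kb inside its second start, which is 1.78 kb inside the first. Its H3K9ac lay in 3 regions, of which 2 were in the 3 lists other than ethanol-treated control and 1 in ethanol-treated knockdown alone. The highest H3K9ac score there was 8.8 in ethanol-treated knockdown, 10.4 in untreated knockdown and 6.6 in untreated control, on the authors' −log10 scale. Of all peaks, 50.3% in ethanol-treated knockdown, 56.1% in untreated knockdown and 34.4% in untreated control scored lower, which places the Ntf3 peaks in the middle of their lists or below it. H3K27ac at Ntf3 did not vanish in ethanol-treated control: within 10 kb of the start it covered 3190 bp in ethanol-treated knockdown, 2617 bp in untreated knockdown, 1277 bp in ethanol-treated control and 1550 bp in untreated control. Over all genes with an H3K9ac peak in the other 3 lists, 433 of 14578 (2.97%) had none in ethanol-treated control, and Ntf3 was among them.

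**Figure D3:**
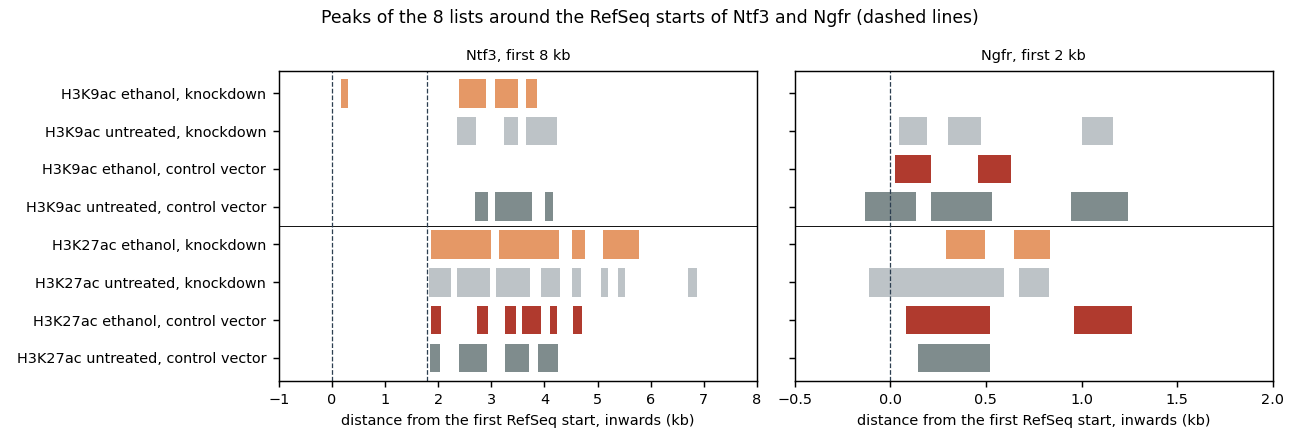
Peaks at Ntf3 (left) and Ngfr (right) by distance in kb inwards from the first RefSeq start, with 1 row per list, starts dashed and narrow peaks widened to a minimum width. The H3K9ac row of ethanol-treated control is empty at Ntf3 and that of ethanol-treated knockdown is empty at Ngfr.

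Ntrk2 (gene 18212, chr13:58806472-59133970, plus strand) had 1 start-side H3K9ac region in all lists, with 3914 bp in ethanol-treated knockdown, 3676 bp in untreated knockdown, 3240 bp in ethanol-treated control and 4063 bp in untreated control. A second H3K9ac region common to all lists lay 205 kb inside the gene, with 475 bp in ethanol-treated knockdown, 468 bp in untreated knockdown, 209 bp in ethanol-treated control and 544 bp in untreated control. In both regions the ethanol-treated control value was the lowest, and the untreated control value the highest. Of the H3K9ac regions in all lists over all genes, 63.0% were lowest in ethanol-treated control and 30.7% highest in untreated control. H3K27ac beyond 200 kb covered 10770 bp in ethanol-treated knockdown, 8986 bp in untreated knockdown, 6410 bp in ethanol-treated control and 7858 bp in untreated control, in 32 regions of which 8 were in all lists. From 10 to 200 kb it covered 2565 bp in ethanol-treated knockdown, 2280 bp in untreated knockdown, 640 bp in ethanol-treated control and 969 bp in untreated control. Of the 23 regions there, 1 was in all lists and 16 were in a single list. Of the 32 regions beyond 200 kb, 18 were in a single list. Over all genes, 28.4% of H3K27ac regions were in all lists and 43.6% in a single list. The noncoding gene Gm53063 lies inside Ntrk2 at 59066524-59073714, so peaks there belong to both.

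Ntrk3 (gene 18213, chr7:78179986-78581034) has no RefSeq start in the promoter table, so it was placed by distance from its upper end. All its H3K9ac lay within 15 kb inside that end, in 4 regions of which 3 were in all lists. H3K27ac in the same 15 kb covered 5410 bp in ethanol-treated knockdown, 4807 bp in untreated knockdown, 4207 bp in ethanol-treated control and 4765 bp in untreated control. From 15 to 200 kb it covered 6570 bp in ethanol-treated knockdown, 3462 bp in untreated knockdown, 1335 bp in ethanol-treated control and 2011 bp in untreated control, and beyond 200 kb no list had a peak. In the flank outside the upper end it covered 1737 bp in ethanol-treated knockdown, 1881 bp in untreated knockdown, 705 bp in ethanol-treated control and 793 bp in untreated control. Inside the gene beyond 15 kb and in the flank, both knockdown lists stood above both control lists, as they did in bases covered by the whole H3K27ac lists. The noncoding gene E430016F16Rik, at 78581066-78718220, holds these flank peaks, and the noncoding gene Gm39038 lies inside Ntrk3 at 78552852-78574321.

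**Figure D4:**
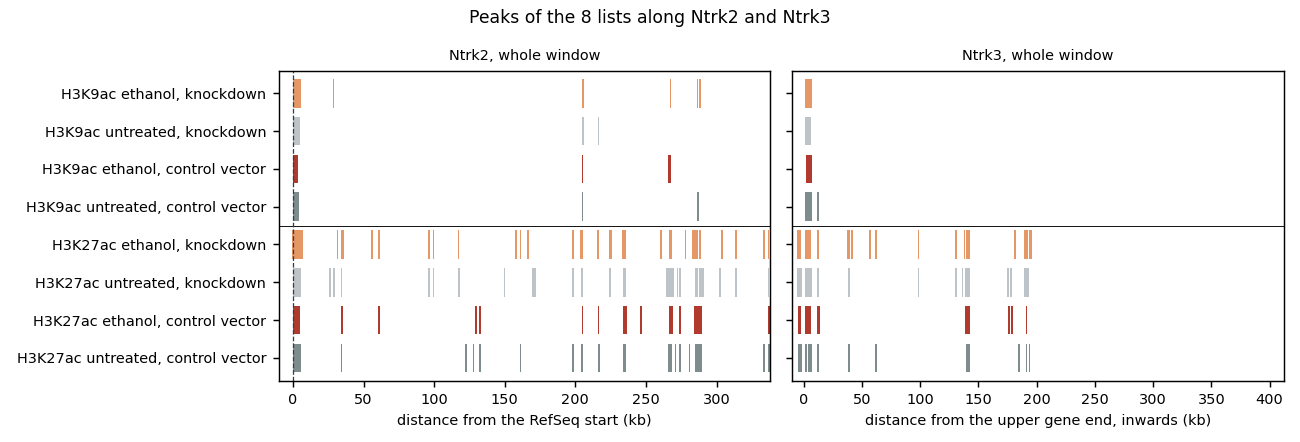
Peaks along Ntrk2 by distance in kb from its RefSeq start (left) and along Ntrk3 by distance in kb inwards from its upper end (right), with 1 row per list and narrow peaks widened to a minimum width. H3K27ac continues past 200 kb in Ntrk2 and is absent there in Ntrk3, and H3K9ac in Ntrk3 stays within 15 kb of the upper end.

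Ngfr (gene 18053, chr11:95568818-95587698, minus strand) had peaks near its start only, the farthest region being centred 1.11 kb inside it. Its 3 H3K9ac regions had a highest score of 4.7 in untreated knockdown, above 14.7% of that list. The highest was 8.0 in ethanol-treated control, above 43.8% of that list, and 8.0 in untreated control, above 41.7%. Over all genes with an H3K9ac peak in the other 3 lists, 41 of 14186 (0.289%) had none in ethanol-treated knockdown, and Ngfr was among them. None of the 5 genes was missing in this way from the H3K9ac lists of untreated knockdown (0.695% of genes) or untreated control (0.345%). The same held for the H3K27ac lists, where 0.129% of genes were missing from ethanol-treated knockdown, 0.451% from untreated knockdown, 1.03% from ethanol-treated control and 1.17% from untreated control. The first H3K27ac region, from 95587105 to 95587811, was in all lists, with 205 bp in ethanol-treated knockdown, 707 bp in untreated knockdown, 439 bp in ethanol-treated control and 379 bp in untreated control. The log2 ratio of Ngfr H3K9ac in ethanol-treated to untreated control was -1.31 with the lists as deposited and 0.42 with lists shortened to equal length by score, so its direction depends on that choice.

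Ratios of covered length were read against all genes with at least 200 bp in either list, a gene being called when the ratio passed 1.5-fold. Contrasts share lists: each list enters 2 of the 4 contrasts of its mark, and their values are not independent. In H3K9ac, ethanol-treated against untreated control gave log2 ratios of -0.77 for Bdnf, -0.34 for Ntrk2, -0.23 for Ntrk3 and -1.31 for Ngfr, and Ntf3 had 0 bp with ethanol and 1098 bp untreated. Lower by over 1.5-fold were 3 of 5 genes, against 34.5% of all genes, and higher were 0 of 5, against 1.18%. The median was -0.77 for the 5 genes and -0.42 for all genes, so most genes of the genome lay below 0 too. Relative to all bases covered in gene windows, Bdnf stood at -0.29 and was no longer called. Summed H3K9ac coverage was also lower in ethanol-treated than untreated control at the markers of neurons (13826 against 26889 bp, 5 of 5 with a peak in both), astrocytes (5678 against 9517 bp, 5 of 5) and the oligodendrocyte lineage (7684 against 13200 bp, 4 and 5 of 5). In ethanol-treated against untreated control, hippocampal markers summed to 11790 against 21286 bp, microglial markers to 0 against 226 bp and endothelial markers to 181 against 254 bp. Myh6, which was the gene with a peak among those of other tissues, had 796 against 1464 bp. The part of these differences in the ratios was not tested.

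In the knockdown the same contrast of H3K9ac gave 0.31 for Bdnf, 0.10 for Ntf3, 0.44 for Ntrk2 and 0.14 for Ntrk3, and Ngfr had 0 bp with ethanol and 487 bp untreated. None of the 5 was higher by over 1.5-fold, against 11.6% of all genes, and 1 was lower, against 3.43%. The median of the 5 was 0.14 and that of all genes 0.11. Neuronal markers summed to 36724 bp with ethanol and 25627 bp in untreated knockdown, and hippocampal ones to 30886 bp with ethanol and 24813 bp untreated. In ethanol-treated against untreated knockdown, astrocyte markers summed to 12013 against 10841 bp, those of the oligodendrocyte lineage to 10980 against 5978 bp, microglial ones to 0 against 148 bp, endothelial ones to 824 against 638 bp and Myh6 to 1527 against 1179 bp, and none of this was tested as a part of the ratios. Ethanol-treated mice had fewer H3K9ac bases than untreated mice with control vector and more with knockdown at 4 of 5 genes, as did 57.5% of all genes. In H3K27ac 4 of 5 genes, again all but Ngfr, had this order, against 42.8% of all genes. Ngfr had the opposite order in H3K27ac, as did 10.1% of all genes.

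Knockdown against control in untreated mice gave H3K9ac log2 ratios of 0.13, 0.11, -0.14 and -0.07 for Bdnf, Ntf3, Ntrk2 and Ntrk3, and -0.86 for Ngfr. None was higher by over 1.5-fold, against 4.36% of all genes, and 1 was lower, against 9.14%. In this contrast the oligodendrocyte markers summed to 5978 bp in knockdown and 13200 bp in control, a log2 ratio of -1.14, while the log2 ratio was -0.07 for neuronal, 0.22 for hippocampal and 0.19 for astrocyte markers. It was -0.61 for microglial and 1.33 for endothelial markers and -0.31 for Myh6, and their part was not tested. With lists of equal length the Ngfr value was 0.35. In ethanol-treated mice the H3K9ac ratios of knockdown to control were 1.20 for Bdnf, 0.64 for Ntrk2 and 0.31 for Ntrk3, with 1274 bp in knockdown and 0 bp in control for Ntf3 and 0 bp in knockdown and 358 bp in control for Ngfr. Higher were 3 of 5, against 39.8% of all genes, and lower was 1, against 0.995%. The Ntrk2 call was lost with peaks at or above the median score (0.41), with lists of equal length (0.48) and relative to all bases covered in gene windows (0.08). The medians were 0.64 for the 5 genes and 0.48 for all genes. Summed marker coverage in those mice was higher in knockdown than in control for neurons (36724 against 13826 bp), hippocampus (30886 against 11790 bp), astrocytes (12013 against 5678 bp) and the oligodendrocyte lineage (10980 against 7684 bp). It was also higher for endothelium (824 against 181 bp) and Myh6 (1527 against 796 bp), while microglial markers had 0 bp in knockdown and 0 bp in control, and the part of these differences was not tested.

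In H3K27ac the ethanol-treated to untreated control ratios were -0.02 for Bdnf, -0.68 for Ntf3, -0.27 for Ntrk2, -0.28 for Ntrk3 and 0.97 for Ngfr. Ngfr was higher by over 1.5-fold, against 5.73% of all genes, and Ntf3 lower, against 6.73%. In the knockdown the ratios were 0.19, 0.23, 0.22, 0.43 and -1.14 in the same order of genes, with 0 of 5 higher, against 13.6%, and Ngfr lower, against 1.76%. Knockdown against control in untreated mice gave 0.38, 0.82, 0.27, 0.42 and 1.19, with 2 of 5 higher, against 13.6% of all genes, and 0 lower, against 2.34%. In ethanol-treated mice it gave 0.59, 1.72, 0.76, 1.13 and -0.92, with 4 of 5 higher, against 32.8%, and 1 lower, against 1.15%. In the order of these contrasts, the medians were -0.27, 0.22, 0.42 and 0.76 for the 5 genes and -0.03, 0.20, 0.17 and 0.39 for all genes. Relative to all bases covered in gene windows, the values for Bdnf, Ntrk2 and Ntrk3 in that last contrast were 0.04, 0.21 and 0.58, none past 1.5-fold, and Ntf3 alone kept its call among the genes that were higher. In H3K27ac the neuronal markers summed to 160974 bp in ethanol-treated knockdown, 115991 bp in untreated knockdown, 74718 bp in ethanol-treated control and 98221 bp in untreated control. This was the order of the Ntrk2 and Ntrk3 values, and also of Bdnf, Ntf3 and the bases covered by the whole lists. Astrocyte, hippocampal and microglial marker sums had the same order, and oligodendrocyte, endothelial and other-tissue sums did not. Astrocyte markers summed to 29530 bp in ethanol-treated knockdown, 19604 bp in untreated knockdown, 16926 bp in ethanol-treated control and 17618 bp in untreated control. Oligodendrocyte markers summed to 51895 bp in ethanol-treated knockdown, 46585 bp in untreated knockdown, 47354 bp in ethanol-treated control and 44438 bp in untreated control. Their part was not tested.

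**Figure D5:**
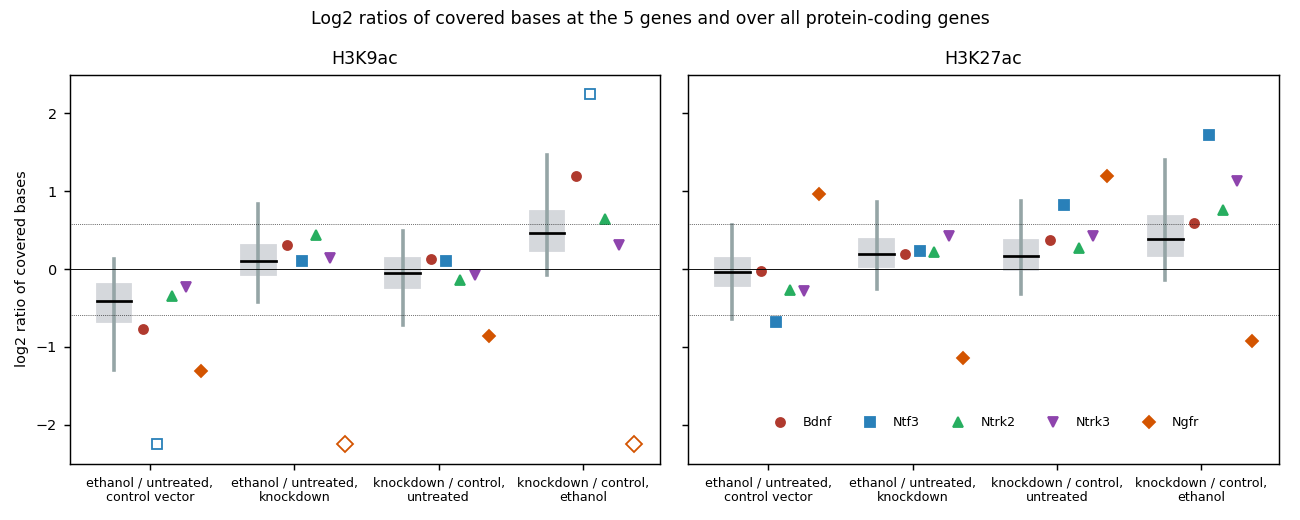
Log2 ratios of covered bases at the 5 genes for H3K9ac (left) and H3K27ac (right) in 4 contrasts, beside all genes with peaks in both lists (line median, box quartiles, bar 5th to 95th percentile), with dotted lines at 1.5-fold and open symbols at the edge for a gene with 0 bp in one list. Ngfr lies past 1.5-fold in all 8 columns, and Ntrk3 lies within it in 7 of them.

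Peaks with no overlapping base in the other list were counted at the 5 genes. In H3K9ac, 2 of 18 peaks (11.1%, 95% Wilson interval 3.10 to 32.8) of ethanol-treated control had none in untreated control, against 11.0% of all peaks in gene windows, and 8 of 21 (38.1%, 20.8 to 59.1) of untreated control had none in ethanol-treated control, against 36.6%. In the ethanol-treated mice 15 of 26 knockdown peaks (57.7%, 38.9 to 74.5) had no counterpart in control, against 41.8%, and 5 of 18 control peaks (27.8%, 12.5 to 50.9) had none in knockdown, against 10.1%. The intervals cover counting error only, and peaks of 1 gene are not independent. In the knockdown 8 of 26 ethanol-treated peaks (30.8%) and 5 of 25 untreated peaks (20.0%) were without counterpart, against 30.3% and 20.6%. In untreated mice 3 of 25 knockdown peaks (12%) and 3 of 21 control peaks (14.3%) were, against 23.4% and 25.8%. For H3K27ac, ethanol-treated control had 18 of 60 without counterpart in untreated control (30%, against 29.5%), and untreated control had 23 of 60 (38.3%, against 33.2%). In the knockdown the counts were 36 of 88 with ethanol (40.9%, against 37.7%) and 25 of 86 untreated (29.1%, against 23.1%). Knockdown against control gave 41 of 86 (47.7%, against 37.1%) and 17 of 60 (28.3%, against 25.5%) in untreated mice, and 50 of 88 (56.8%, against 46.7%) and 11 of 60 (18.3%, against 18.1%) with ethanol.

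Joined over lists, the 5 genes held 30 H3K9ac regions and 120 H3K27ac regions. An H3K27ac region overlapped 26 of the 30 H3K9ac regions (86.7%), against 88.0% over all genes, and H3K9ac overlapped 23 of the 120 H3K27ac regions (19.2%, 95% Wilson interval 13.1 to 27.1), against 28.1%. All 4 lists held 9 of 30 H3K9ac regions (30%, against 38.5%) and 26 of 120 H3K27ac regions (21.7%, against 28.4%). Of the 9 H3K9ac regions in all lists, 7 were narrower in ethanol-treated than untreated control, against 80.8% over all genes, and 9 were wider in ethanol-treated than untreated knockdown, against 60.1%. The matching counts in H3K27ac were 17 of 26 (55.0% over all genes) and 21 of 26 (64.2%). The 9 H3K9ac regions in all lists lay at Bdnf (4), Ntrk3 (3) and Ntrk2 (2), and regions of 1 gene are not independent.

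Genes whose covered length ran most alike over the 8 lists were found by the mean absolute difference in log2 of covered bp plus 100. For Bdnf these were Psmd14 at 0.09, Fgf12 at 0.09 and Mmp24 at 0.11, and for Ntf3 they were Nes at 0.26, Slc22a12 at 0.30 and Syt17 at 0.36. Ntrk2 ran closest to Camkk1 at 0.09, Tet3 at 0.09 and Shank1 at 0.10. Ntrk3 ran closest to Znrf1 at 0.09, Panx2 at 0.09 and Mapre2 at 0.10. Ngfr was followed least closely, by Dab2 at 0.30, Gm30083 at 0.37 and Pde1a at 0.37.

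Another 64 genes of neurotrophin signalling were counted in the same way. In ethanol-treated against untreated control H3K9ac, 24 of 63 tested were lower by over 1.5-fold (38.1%, against 34.5% of all genes) and 0 higher (against 1.18%), with a median of -0.54 against -0.42 for all genes. By role, 6 of 11 ligand and processing genes, 6 of 9 partners of p75, 3 of 11 adaptors, 4 of 18 kinases and CREB genes, 3 of 7 regulators of Bdnf and 2 of 7 targets were lower, each read against the same 34.5%. Ntf5, which encodes the TrkB ligand NT-4, had 0 bp in ethanol-treated and 367 bp in untreated control. With ethanol, knockdown exceeded control by over 1.5-fold at 26 of 61 genes (42.6%, against 39.8% of all genes). It was below control by over 1.5-fold at 0 (against 0.995%), with a median of 0.48 as in all genes. Nptx2, a secreted pentraxin induced by BDNF, had 1272 bp in knockdown and 174 bp in control. Ntf5 had 540 bp in knockdown and 0 bp in control. In untreated mice Nptx2 had 1184 bp in knockdown and 255 bp in control. By over 1.5-fold, 2 of 63 genes were higher in untreated knockdown (3.17%, against 4.36% of all genes) and 4 lower (6.35%, against 9.14%). Plat, which encodes tissue plasminogen activator, had 2489 bp in knockdown and 1574 bp in control there. Plg, which encodes plasminogen, had 0 bp in knockdown and 267 bp in control. In the knockdown, ethanol-treated exceeded untreated mice by over 1.5-fold at 6 of 61 genes (9.84%, against 11.6% of all genes). They were below by over 1.5-fold at 1 (1.64%, against 3.43%). Mmp9, a protease that can cleave proBDNF, had 1437 bp with ethanol and 722 bp untreated. Sorcs2, a co-receptor of p75, had 1548 bp with ethanol and 785 bp untreated, and Sorcs1 had 999 bp with ethanol and 1518 bp untreated.

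Counts in H3K27ac were again of genes past 1.5-fold. In ethanol-treated against untreated control, 2 of 62 of these genes were lower (3.23%, against 6.73% of all genes) and 0 higher (against 5.73%). The median was -0.07 against -0.03 for all genes. Sorcs2 had 5769 bp with ethanol and 8991 bp in untreated control. In the knockdown 6 of 63 were higher with ethanol (9.52%, against 13.6% of all genes) and 0 lower (against 1.76%), among them Plg with 529 bp in ethanol-treated and 0 bp in untreated knockdown. In untreated mice knockdown exceeded control by over 1.5-fold at 4 of 62 genes (6.45%, against 13.6% of all genes) and was below by over 1.5-fold at 1 (1.61%, against 2.34%). With ethanol it exceeded control by over 1.5-fold at 17 of 63 (27%, against 32.8%) and was below by over 1.5-fold at 0 (against 1.15%). In untreated mice Mmp9 had 2828 bp in knockdown and 1477 bp in control, and Ntf5 had 903 bp in knockdown and 489 bp in control. With ethanol Plg had 529 bp in knockdown and 128 bp in control.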

How the data were processed

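Peaks of H3K9ac and H3K27ac came from 8 deposited lists, 1 per mark and condition, each with 6 columns and no header. The score is a −log10 value deposited by the authors, read as a −log10 q-value because its minimum is the −log10 (3) of the false discovery rate of 0.001 in the labels. Per the submitters' processing notes, the tools were MACS2, bedtools, STAR 2.5.2a and bcl2fastq and the build GRCm38 (mm10), with no role stated for any of them. The sources used here do not say how the 3 replicates of a group were combined. Depth is not known, so no floor on counts applies, and inputs have no list of their own.

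Samples were grouped by their titles. Genes came from a RefSeq gene table (GRCm38.p6) and transcription starts from the RefSeq promoter table. It gives no exons, so the planned placing by exon was not made, and Ntrk3 was placed from its upper end. Coordinates are 1-based. Windows were the gene with 10 kb on each side; 1 shared base made an overlap. Covered lengths were compared as ratios, called past 1.5-fold where either list had 200 bp, beside all 21883 protein-coding genes, without a test. Peaks off the assembled chromosomes were left out of counts. Alternatives changed the flank, the score cut, the list length, the peak width, the overlap and the scaling. The members and lists were chosen with earlier results of these data known. Named genes are the members, the 3 most alike genes to each over 8 lists, and up to 2 genes in each direction per contrast from the neurotrophin list, of which 1 is not reported here. Markers of neurons, hippocampus, astrocytes, oligodendrocyte lineage, microglia, endothelium and other tissues were summed over the genes of each list. In H3K27ac hippocampal markers summed to 101013 bp in ethanol-treated knockdown, 82366 bp in untreated knockdown, 53666 bp in ethanol-treated control and 67005 bp in untreated control. Microglial markers summed to 2565 bp in ethanol-treated knockdown, 2030 bp in untreated knockdown, 1201 bp in ethanol-treated control and 1895 bp in untreated control. Endothelial markers summed to 6045 bp in ethanol-treated knockdown, 4085 bp in untreated knockdown, 3539 bp in ethanol-treated control and 2456 bp in untreated control. Other-tissue markers summed to 4674 bp in ethanol-treated knockdown, 2215 bp in untreated knockdown, 2785 bp in ethanol-treated control and 2371 bp in untreated control. Steps were tested on simulated peaks. Python 3.11.15, numpy 2.4.6, pandas 2.3.3, scipy 1.17.1 and matplotlib 3.10.9 were used.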

Additional observations from a re-analysis of the deposited data

Results flagged for a closer look

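At 9 of 10 pairs of gene and mark, the difference between ethanol-treated and untreated mice had opposite signs in knockdown and control vector. With 1 list per group the difference was not tested, and fewer bases with ethanol in control vector together with more in knockdown were also seen at 57.5% of all genes in H3K9ac and 42.8% in H3K27ac. The opposite order, which only Ngfr H3K27ac had among these pairs, was seen at 3.57% of all genes in H3K9ac and 10.1% in H3K27ac. Some signs depended on scaling. Relative to all bases covered in gene windows, log2 ratios with ethanol in control vector were 0.14 for Ntrk2 H3K9ac, 0.25 for Ntrk3 H3K9ac and 0.05 for Bdnf H3K27ac. They stayed below 0 for Bdnf H3K9ac (-0.29), Ntf3 H3K27ac (-0.61) and Ntrk2 H3K27ac (-0.20). In the knockdown Ntf3 H3K9ac then stood at -0.04 and Ntrk3 H3K9ac at 0.00. Summed over all genes, H3K27ac bases had a log2 ratio of 0.24 with ethanol in the knockdown. The unscaled H3K27ac ratios of Bdnf (0.19), Ntf3 (0.23), Ntrk2 (0.22) and Ngfr (-1.14) lay below that value, and that of Ntrk3 (0.43) lay above it. The values below are the ethanol minus untreated difference in control vector less that in knockdown, in covered bp. In H3K9ac they were -2564 for Bdnf (997 in knockdown, -1567 in control), -1183 for Ntf3 (85 in knockdown, -1098 in control), -2555 for Ntrk2 (1557 in knockdown, -998 in control) and -1053 for Ntrk3 (423 in knockdown, -630 in control). In H3K27ac they were -777 for Bdnf (731 in knockdown, -46 in control), -1536 for Ntf3 (683 in knockdown, -853 in control), -4784 for Ntrk2 (2584 in knockdown, -2200 in control), -4889 for Ntrk3 (3567 in knockdown, -1322 in control) and 833 for Ngfr (-472 in knockdown, 361 in control).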

How the results depend on the processing

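No paired analysis was possible because each list pools the replicates of its group, and no replicate could be left out for the same reason. Depth is unknown, so a missing peak can mean fewer reads as well as less acetylation. Of 240 alternative values of covered length, 217 kept their call and 21 did not. The other 2, both of Ngfr H3K9ac, had been called lower and changed sign. Sign changes of values not called higher or lower were left out of that count. Relative to all bases covered in gene windows, Ntrk2 H3K9ac with ethanol in control went from -0.34 to 0.14. Ntrk3 H3K9ac in that contrast went from -0.23 to 0.25, and both kept their call. Of 112 alternative shares of unmatched peaks, 90 stayed inside the interval of the reported share. Windows without flanks or with 5 kb on each side changed no call and took no share out of its interval. The cause of the changes was not tested.

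With lists of equal length the log2 ratio for Ngfr H3K9ac reversed to 0.42 (ethanol-treated to untreated control) and 0.35 (knockdown to control, untreated). Under that setting the calls also changed for Ntf3 H3K9ac with ethanol in the knockdown (-0.90), Ntrk2 H3K9ac in knockdown to control with ethanol (0.48), Ntf3 H3K27ac with ethanol in control (-0.52) and Bdnf H3K27ac in knockdown to control with ethanol (0.43). With peaks at or above the median score Ngfr had 0 bp of H3K9ac in every list and Ntf3 had 0 bp in both control lists. Ntf3 H3K9ac then stood at -1.46 with ethanol in the knockdown and 1189 bp higher in untreated knockdown than control, and Ntrk2 at 0.41 in knockdown to control with ethanol. With peaks of at least 300 bp Ngfr had 0 bp of H3K9ac in both knockdown lists and in ethanol-treated control, and Ntf3 H3K27ac stood at 0.61 with ethanol in the knockdown. Relative to all bases covered in gene windows, Bdnf H3K9ac stood at -0.29 with ethanol in control, Ntrk2 H3K9ac at 0.08 in knockdown to control with ethanol, Ntf3 H3K27ac at 0.58 in knockdown to control untreated, and Bdnf, Ntrk2 and Ntrk3 H3K27ac at 0.04, 0.21 and 0.58 in knockdown to control with ethanol.

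Among shares of unmatched peaks, the median score gave 0% for H3K9ac ethanol-treated control and 0% for untreated control in the ethanol contrast of control mice, 30.8% for untreated knockdown and 0% for untreated control in the untreated vector contrast, and 33.3% for ethanol-treated knockdown and 0% for ethanol-treated control. In H3K27ac it gave 17.5% for untreated knockdown in the ethanol contrast and 17.9% for untreated control in the vector contrast. Peaks of at least 300 bp gave H3K9ac shares of 6.67% for untreated knockdown in the ethanol contrast, 35.7% for untreated control in the vector contrast and 0% for ethanol-treated control in the vector contrast. In H3K27ac they gave 13.6% for ethanol-treated control and 18.4% for untreated knockdown in the ethanol contrasts, and 31.6% for untreated knockdown and 11.1% for untreated control in the vector contrast. Asking for 50% of the peak gave 66.7% for H3K9ac untreated control in the ethanol contrast and 73.9% for H3K27ac ethanol-treated knockdown in the vector contrast. Joining peaks up to 500 bp apart gave 38.5% for H3K9ac ethanol-treated knockdown in the vector contrast. In H3K27ac it gave 13.3% for ethanol-treated and 23.3% for untreated control, 19.8% for untreated knockdown in the ethanol contrasts and 34.9% for untreated knockdown in the vector contrast.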
